A study of Mus musculus with 136 samples.

Results

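Tumour necrosis factor (TNFa) was given to wild-type mouse bone marrow-derived macrophages (BMDM), and RNA attached to chromatin was sequenced at 0, 0.5, 1, 2 and 6 h. These 5 libraries, 1 per time, are 5 of the 136 libraries of a study of p50 and the nuclear IkB proteins. They were chosen by their labels, as the chromatin-associated RNA libraries of the TNFa series, and each time was set against the 0 h library. The labels give the mice as wild-type (C57/B16), with no engineered allele, and the macrophages as differentiated for 6 days in 8% M-CSF, a growth factor for macrophages; neither a TNFa dose nor the number of mice is stated. Wild-type BMDM given lipid A, a lipid of the bacterial outer membrane that is sensed by the receptor TLR4, were used beside them: 50 chromatin RNA libraries, 10 at each of the same times, which are the wild-type arms of the Nfkb1, Nfkbid, Nfkbiz and Bcl3 knockout series. So were 5 libraries of whole-cell RNA, 1 unstimulated and 1 at each TNFa time, taken as such from their titles, since their extraction protocol is worded as for chromatin. The control BMDM of a series that overexpressed the IkB protein IkBz, unstimulated and at 2 h of TNFa, were used in 1 comparison.

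TNFa binds the receptor TNFR1, which activates the IKK kinases; these mark the inhibitor IkBa for destruction and free the transcription factor NF-kB to enter the nucleus. NF-kB then switches on the genes of its own inhibitors, among them Nfkbia, which encodes IkBa, so that a steady stimulus can give an early burst of transcription followed by later phases. RNA on chromatin is mostly RNA that is still being made, so its level follows transcription more closely than the level of RNA in the whole cell, which also depends on how long each mRNA lasts.

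Values are RPKM (reads per kilobase of gene span, introns included, scaled to sequencing depth), and a change is the difference of log2(RPKM + 0.5) from the 0 h library. A gene was counted as higher or lower at a 3-fold change on that scale (1.58), where the larger of the 2 libraries held at least 1 RPKM and 20 reads. With 1 library at each time no test of the effect of TNFa is possible, and the intervals given below are 95% exact binomial intervals of an RPKM ratio that cover counting error only. All 4 comparisons share the 0 h library. The libraries held between 11.5 M (2 h) and 23.4 M (0.5 h) reads, and 3877 genes reached 1 RPKM and 20 reads in at least 1 of them. The change over these genes had its median near 0 at every time (-0.04 to 0.03), but its spread was widest at 0.5 h, with a standard deviation of 0.73 across genes, against 0.39 at 1 h, 0.48 at 2 h and 0.55 at 6 h. The part of that wide spread in the counts at 0.5 h was not tested.

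The cells carried macrophage RNA. The M-CSF receptor gene Csf1r lay between 18.9 and 31.4 RPKM and the lysozyme gene Lyz2 between 22.0 and 63.4 RPKM. None of the 7 macrophage markers measured was counted as higher or lower at any time. Their median change over the 4 times was 0.12, -0.93, -0.71 and 0.11. The list thus dipped in the 1 h and 2 h libraries without passing the fold. Csf1r did not share this dip, with changes of 0.72, 0.18, 0.40 and 0.45. Of the markers of neutrophils, lymphocytes, stromal cells, mast cells and basophils, erythroid cells and dendritic cells, no gene reached the level needed for a comparison, and the highest single value among them was 0.36 RPKM. In bulk RNA, fewer cells of a type and less RNA per cell cannot be told apart. The nuclear RNAs Malat1 (521 to 773 RPKM) and Rmrp (4121 to 5466 RPKM) were abundant in all 5 libraries.

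The response was broad and early, shrank at 1 h, and grew again by 6 h. At 0.5 h 145 of 3545 genes measured were higher (4.09%) and 23 were lower (0.649%). At 1 h 22 of 3422 were higher (0.643%) and 6 lower (0.175%). At 2 h 56 of 3411 were higher (1.64%) and 5 lower (0.147%), and at 6 h 79 of 3519 were higher (2.24%) and 10 lower (0.284%). In all, 183 genes were higher at some time, and 145 of them already at 0.5 h. Only 3 genes were first higher at 1 h (Mllt6, Ikbke and Cers6), 10 at 2 h and 25 at 6 h. These counts moved with the settings: with a pseudocount of 1 in place of 0.5 the genes higher numbered 95, 9, 34 and 45 over the 4 times. Against the mean of 10 unstimulated libraries of the other series in place of the 0 h library, 358 genes were lower at 0.5 h, and 231, 247 and 207 later. That mean includes 1 library, replicate 1 of the Nfkbid series, that stood apart from the others, as given below.

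The steps between neighbouring times showed where the large moves lay. From 0.5 to 1 h 92 of 3540 genes were at least 3-fold lower (2.6%) and 32 at least 3-fold higher (0.904%). From 1 to 2 h 3 of 3380 genes were 3-fold higher (0.0888%), and these were Plek, Acod1 and Cxcl2; no gene was 3-fold lower (0%). From 2 to 6 h 2 of 3334 genes were 3-fold higher (0.06%), Cfb and Mx1, and 1 was lower (0.03%), Phldb1. Of the 145 genes higher at 0.5 h, 143 were lower at 1 h than at 0.5 h, with a median step of -1.57, but since they were chosen for a high 0.5 h value a part of such a fall follows from the choice. From 1 to 2 h, a step that uses neither the 0 h nor the 0.5 h library, 127 of the 145 were higher, with a median step of 0.39 against -0.05 over all genes measured. From 2 to 6 h 86 of them were higher, with a median of 0.04.

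**Figure D1:**
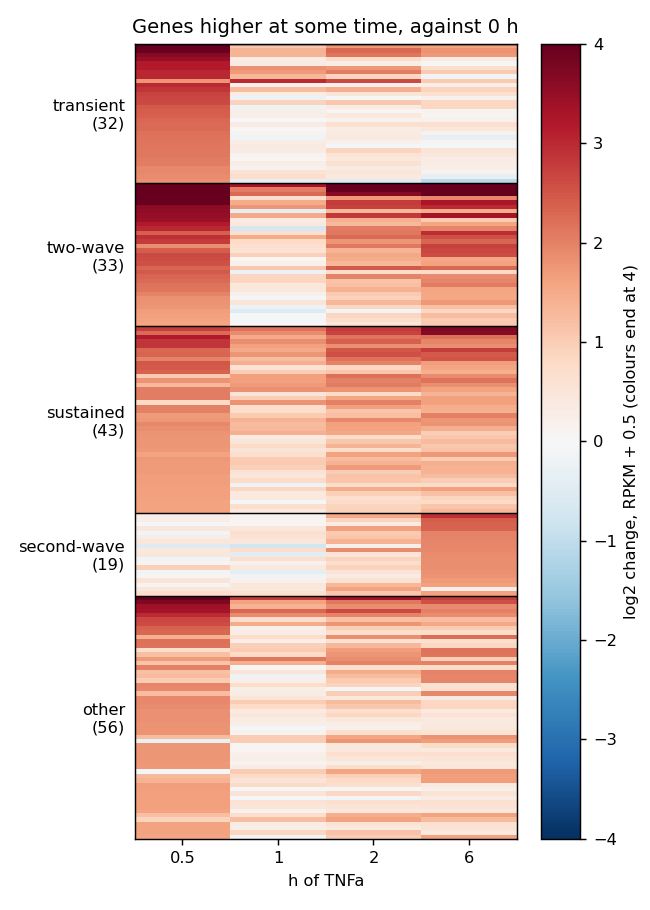
Heat map of the 183 genes higher at some time; columns are hours of TNFa, rows are genes grouped by class and ordered by their largest rise, and colour is the log2 change of RPKM + 0.5 against the 0 h library, with colours ending at 4. In most rows outside the second-wave class the 1 h column is paler than the 0.5 h column.

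The 183 genes were sorted by the shape of their course, so the shapes below describe the rule and are no finding. There were 32 transient genes (highest at 0.5 or 1 h, and at 6 h at least 3-fold under that peak), 33 two-wave genes (higher at 0.5 or 1 h, then at least 2-fold under that early peak at 1 or 2 h, then at least 2-fold up from the trough), 43 sustained genes (higher at 0.5 or 1 h and at 6 h within 2-fold of their highest value) and 19 second-wave genes (under 2-fold at 0.5 and 1 h, and higher at 2 or 6 h). The other 56 met none of these rules.

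**Figure D2:**
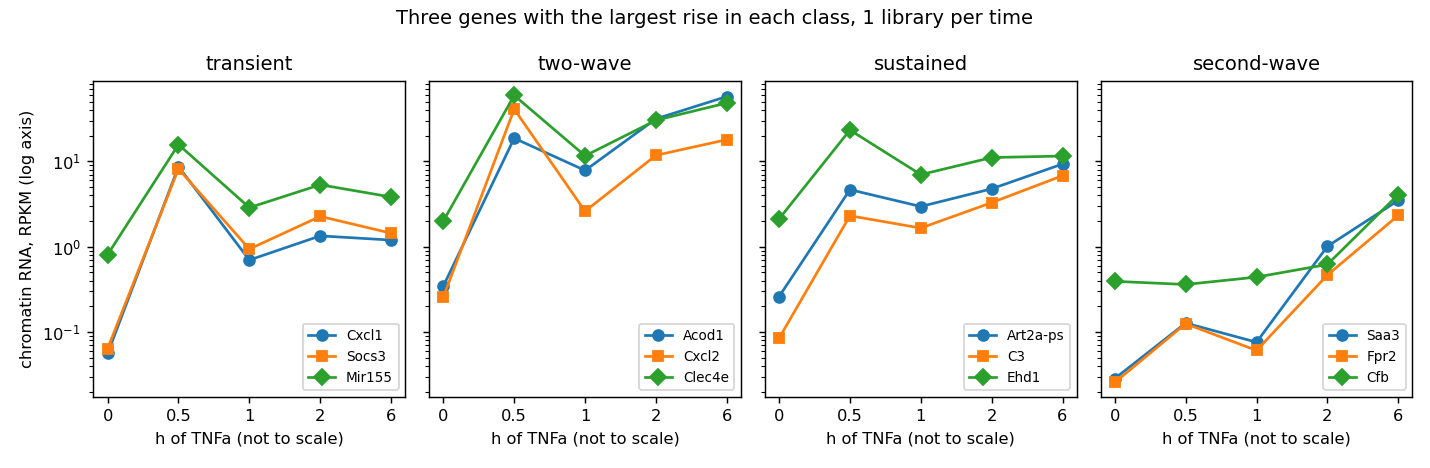
Chromatin RNA in RPKM (log axis) over the 5 times, 1 library per time and times not to scale, for the genes with the largest rise in the transient, two-wave, sustained and second-wave classes. Cxcl2 goes from 0.258 to 41.0 RPKM at 0.5 h, down to 2.61 at 1 h and up to 18.0 at 6 h, while Saa3 stays at or under 0.128 RPKM up to 1 h and reaches 3.49 at 6 h.

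Cxcl2, a chemokine gene that attracts neutrophils, had the largest change of any gene counted at 0.5 h (5.77). Cxcl2 (chr5:91332925-91334964 in mm9) had 0.258, 41.0, 2.61, 11.8 and 18.0 RPKM at 0, 0.5, 1, 2 and 6 h, a 159-fold ratio at 0.5 h (86.3 to 332) resting on 10 reads at 0 h and 1957 at 0.5 h. Its neighbour Cxcl1 (chr5:91320271-91322141 in mm9) had 0.0562, 8.70, 0.699, 1.34 and 1.20 RPKM, a 155-fold ratio at 0.5 h (42.6 to 1283). Both genes were at their highest at 0.5 h and low at 1 h, but Cxcl2 came back to 4.61 above the 0 h level on the log2 scale at 6 h and Cxcl1 to 1.61. Of the 4 chemokines in that list 2 had enough signal to be measured, and both were higher at 0.5, 2 and 6 h.

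The sequences before the starts of these neighbours, and those of Ifit1, Isg15 and Cxcl10, are shown as examples. Each run holds the 250 bases before the start in RefSeq's GRCm38.p6, written 5′ to 3′ on the gene's own strand, with capitals at the matches to a kB motif, GGNNTTTCC or GGGNNTTCC on either strand, or to an interferon-type motif, GAAANNGAA on either strand; matches can overlap. The first lies at chr5:90903649-90903898 on the plus strand and the second at chr5:90890995-90891244 on the plus strand. Both hold 2 kB matches and no interferon-type match, and 1 of the matches reads GGAATTTCC in both.
Cxcl2: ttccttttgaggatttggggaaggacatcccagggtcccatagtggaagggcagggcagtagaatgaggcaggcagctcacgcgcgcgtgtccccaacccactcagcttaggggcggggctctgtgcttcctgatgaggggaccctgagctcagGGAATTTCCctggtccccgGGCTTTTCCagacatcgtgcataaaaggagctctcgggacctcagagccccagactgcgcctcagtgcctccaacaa
Cxcl1: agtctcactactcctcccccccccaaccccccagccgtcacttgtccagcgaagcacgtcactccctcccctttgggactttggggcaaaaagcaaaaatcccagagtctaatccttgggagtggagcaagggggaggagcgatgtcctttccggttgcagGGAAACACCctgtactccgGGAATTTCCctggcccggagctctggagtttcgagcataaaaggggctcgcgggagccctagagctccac
Ifit1 (chr19:34640639-34640888, plus strand) and Isg15 (chr4:156200819-156201068, minus strand), both second-wave genes, hold 3 interferon-type matches each, Isg15 with 1 kB match and Ifit1 with none.
Ifit1: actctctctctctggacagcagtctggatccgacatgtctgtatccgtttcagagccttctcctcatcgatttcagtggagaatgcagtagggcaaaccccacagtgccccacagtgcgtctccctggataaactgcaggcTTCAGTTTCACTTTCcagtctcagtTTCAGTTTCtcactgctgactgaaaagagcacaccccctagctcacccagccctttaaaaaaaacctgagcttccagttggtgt
Isg15: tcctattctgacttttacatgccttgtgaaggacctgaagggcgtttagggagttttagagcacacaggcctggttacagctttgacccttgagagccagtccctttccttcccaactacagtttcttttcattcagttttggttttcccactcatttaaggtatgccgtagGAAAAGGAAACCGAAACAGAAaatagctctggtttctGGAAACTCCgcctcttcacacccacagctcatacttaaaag
Cxcl10 (chr5:92348890-92349139, minus strand), a two-wave gene, holds 2 kB matches and 1 interferon-type match.
Cxcl10: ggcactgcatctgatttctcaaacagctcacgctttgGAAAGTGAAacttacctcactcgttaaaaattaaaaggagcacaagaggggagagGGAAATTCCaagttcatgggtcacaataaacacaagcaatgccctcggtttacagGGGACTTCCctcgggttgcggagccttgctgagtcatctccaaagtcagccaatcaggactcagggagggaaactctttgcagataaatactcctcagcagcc

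Over all 27025 genes with such a sequence, 9.43% held a kB match and 8.18% an interferon-type match, and over the 2929 measured genes with one the shares were 10.7% and 7.14%. A kB match was found in 6 of 26 transient genes with a sequence, 9 of 30 two-wave genes, 6 of 36 sustained genes and 3 of 14 second-wave genes. An interferon-type match was found in 4 of 26 transient, 8 of 30 two-wave, 2 of 36 sustained and 7 of 14 second-wave genes. The 7 were Ifi205, Ifit1, Isg15, Rsad2, Saa3, Slamf8 and Tma16. A match to the AP-1 motif TGANTCA was found in 7.82% of all such sequences and in 4.51% of the measured genes. It was present in 1 of 26 transient, 4 of 30 two-wave, 4 of 36 sustained and 1 of 14 second-wave genes. For the CRE motif TGACGTCA the 2 shares were 1.77% and 3.07%. It was present in 2 transient, 1 two-wave, 0 sustained and 1 second-wave genes. Among sequences not shown, Rsad2 and Saa3, both second-wave genes, held 1 kB and 1 interferon-type match each. Icam1 and Nfkbia held 2 kB matches each, and Sod2, a two-wave gene, held neither kind. These are matches of letters in 1 window, with no measure of binding.

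Genes that restrain NF-kB were among the early ones. Nfkbia had 4.45, 65.5, 14.7, 21.0 and 28.3 RPKM at 0, 0.5, 1, 2 and 6 h, a 14.7-fold ratio at 0.5 h (13.0 to 16.7). It was therefore lowest after stimulation at 1 h and higher again at each later time. Tnip3, whose product binds the ubiquitin editor A20, had 1.45, 44.4, 2.70, 6.02 and 7.02 RPKM, and was 30.6-fold up at 0.5 h (28.9 to 32.5). Bcl3, a nuclear IkB protein, stayed up at 0.728, 4.57, 3.87, 3.75 and 3.21 RPKM. Zfp36, which speeds the decay of cytokine mRNAs, had 3.65 RPKM at 0 h, 15.4 at 0.5 h and between 4.22 and 4.71 RPKM from 1 h on. The number of genes higher among the 7 feedback genes measured was 4 at 0.5 h, then 2, 3 and 3, and none was lower. The others did not pass: the ribonuclease gene Zc3h12a changed by 1.42 at 0.5 h, N4bp1 by 1.0 and Tnip2 by 0.05.

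The genes of the NF-kB subunits moved less. Nfkb1, which encodes p105 and p50, had 1.68, 7.03, 5.36, 5.84 and 3.82 RPKM over the 5 times and was higher at 0.5 h (4.19-fold, 4.04 to 4.35). Rel, the gene of c-Rel, had 1.5, 6.32, 1.63, 2.16 and 2.14 RPKM and was higher at 0.5 h (4.20-fold, 3.90 to 4.53). Rela, the gene of p65, went from 2.18 to 5.84 RPKM at 0.5 h, a change of 1.24 that did not pass. Neither was counted at a later time, although Nfkb1 still had 5.36 RPKM at 1 h, when Rel was back at 1.63 RPKM.

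Among the 10 measured genes of TNF receptor signalling, 2 were higher at any time. Tnfrsf1b, the gene of TNFR2, the second TNF receptor, had 2.95, 11.6, 10.2, 13.5 and 15.1 RPKM and was higher at all 4 times. Birc3, which encodes the ubiquitin ligase cIAP2, had 1.07, 11.3, 3.89, 7.0 and 8.79 RPKM and dipped at 1 h. Tnfrsf1a, the gene of TNFR1 itself, had 3.25, 1.45, 3.25, 2.59 and 3.42 RPKM at 0, 0.5, 1, 2 and 6 h, with no time past the fold. The kinase gene Map3k8 changed by 1.24 at 0.5 h and did not pass. The median change of the 10 was 0.52 at 0.5 h and between 0.10 and 0.14 later.

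Few immediate-early genes passed, and they differed in course. Egr1, an early growth-response transcription factor, had 0 or 1 read at 0 h, 200 reads at 0.5 h (2.28 RPKM), 9 at 1 h, 2 at 2 h and 4 at 6 h, and was at least 54.2-fold higher at 0.5 h against a floor of 3 reads in the 0 h library. Those reads are not scaled to depth, and the 2 h library was the shallowest. Junb, a part of the factor AP-1, had 2.80, 33.8, 8.20, 11.5 and 11.8 RPKM, and was higher at 2 and 6 h too. Of 13 immediate-early genes measured, 3 were higher at 0.5 h, Ier3 being the third, and the median of the list was 0.69 at 0.5 h and between -0.06 and 0.38 afterwards.

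Dusp1, a phosphatase that switches off p38 and JNK, had 2.83, 17.8, 2.43, 3.64 and 5.36 RPKM. Dusp2 had 0.142, 3.50, 0.716, 0.858 and 0.628 RPKM, and Dusp5 had 0.258, 2.85, 0.436, 0.361 and 0.319 RPKM. All 3 were higher at 0.5 h and at no later time. Dusp6, a phosphatase that acts on ERK, went the other way: 4.42, 0.812, 0.790, 1.18 and 1.54 RPKM at 0, 0.5, 1, 2 and 6 h, and it was counted as lower at 0.5 and 1 h. Of the 8 genes of this list measured, 3 were higher and 1 lower at 0.5 h, and none was higher later.

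Of the cytokine genes, 2 were transient, Tnfsf9 and Il1b. Tnfsf9, which encodes the ligand 4-1BBL, had 1.95, 27.0, 2.50, 3.69 and 2.60 RPKM. Il1b had 0 or 1 read at 0 h, 332 at 0.5 h (2.16 RPKM), 13 at 1 h, 14 at 2 h and 7 at 6 h, at least 89.9-fold higher at 0.5 h against the floor; its span overlaps that of another gene. These reads are not scaled to depth: as log2(RPKM + 0.5) Il1b stood at -0.75 at 1 h and -0.55 at 2 h. Ebi3, a subunit of the cytokine IL-27, had 0.764, 3.98, 1.26, 1.73 and 1.40 RPKM. Of 5 such genes with enough signal, 3 were higher at 0.5 h and none at 1, 2 or 6 h. Socs3, which blocks signalling by cytokine receptors, had 0.0641, 8.19, 0.940, 2.27 and 1.44 RPKM, and was higher at 2 and 6 h as well.

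Other transient genes named by the size of their peak were Mmp13, a collagenase gene, with 0.102, 4.95, 0.263, 0.208 and 0.120 RPKM, and Gadd45b, a stress-response gene, with 0.671, 10.1, 3.69, 3.36 and 1.32 RPKM. Sdc4, the gene of the surface proteoglycan syndecan-4, had 1.69, 15.4, 4.77, 5.50 and 3.58 RPKM. Phldb1 was the 1 transient gene highest at 1 h: it had 0.314, 2.25, 5.99, 4.53 and 1.17 RPKM.

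The two-wave genes with the largest changes included the following. Acod1, which makes itaconate, had 0.346, 18.7, 7.84, 31.6 and 57.6 RPKM, a 166-fold ratio at 6 h (130 to 217) and the largest change of any gene counted as higher at 6 h (6.10). Clec4e, a receptor for mycobacterial glycolipid also called Mincle, had 2.00, 59.4, 11.6, 30.4 and 48.4 RPKM. Tlr2, the receptor for bacterial lipoproteins, had 0.975, 17.3, 4.51, 9.33 and 11.2 RPKM. In these 3 genes the 1 h value was the lowest after stimulation and the values climbed from there to 6 h.

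Cybb, a subunit of the phagocyte NADPH oxidase, had 1.52, 30.9, 5.17, 13.7 and 18.8 RPKM. Sod2, the mitochondrial superoxide dismutase, had 0.567, 11.7, 2.58, 7.07 and 10.2 RPKM, so that its 6 h value nearly equalled its 0.5 h value. The chemokine gene Ccl9 had 4.24, 20.2, 5.99, 12 and 13.5 RPKM. Cxcl10, a chemokine gene known for its response to interferon, had 0.444, 4.44, 0.975, 3.58 and 6.75 RPKM, the highest value at 6 h.

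Icam1, the adhesion molecule that binds leukocyte integrins, had 1.04, 30.7, 10, 14.7 and 10.1 RPKM, and was 29.3-fold up at 0.5 h (25.9 to 33.4). It met none of the class rules. Tnfaip2, a TNFa-induced gene, had 3.36, 38.7, 18.5, 23.4 and 15.1 RPKM. Of 5 adhesion and surface receptor genes measured, 4 were higher at 0.5 h and 3 at each later time.

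The sustained class held genes that at 6 h were still within 2-fold of their highest value. C3, the central complement protein, had 0.0848, 2.31, 1.66, 3.29 and 6.81 RPKM, an 80.3-fold ratio at 6 h (58.6 to 113). Art2a-ps, annotated as a pseudogene, had 0.260, 4.67, 2.96, 4.78 and 9.33 RPKM, and reads of a pseudogene can belong to a near copy. Ehd1, a gene of membrane recycling, had 2.12, 23.3, 7.01, 11.1 and 11.6 RPKM, and Malt1, a protease of immune signalling, had 1.09, 7.33, 4.03, 8.44 and 10.5 RPKM.

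Marcksl1 had 0.722, 8.36, 3.97, 5.88 and 4.25 RPKM, and the sialyltransferase gene St3gal1 had 1.21, 11.8, 4.82, 5.56 and 5.71 RPKM. Gch1, the first enzyme of tetrahydrobiopterin synthesis, had 0.805, 4.75, 1.68, 2.30 and 3.01 RPKM. The sustained class had the longest median span of the 4 classes, 22.0 kb, against 11.4 kb in the transient, 10.5 kb in the two-wave, 10.2 kb in the second-wave class and 16.6 kb over all genes measured. The part of gene length in the classes was not tested.

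The largest second-wave changes at 6 h were those of Saa3 (2.92), Fpr2 (2.43) and Cfb (2.36). Of the 19 second-wave genes, 3 stood in the list of acute-phase and effector genes and 5 in that of interferon-stimulated genes. Saa3, an acute-phase protein, had 0.0286, 0.128, 0.0762, 1.01 and 3.49 RPKM, a 122-fold ratio at 6 h (33.5 to 1015) with 2 reads at 0 h and 258 at 6 h. Cfb, complement factor B, had 0.394, 0.362, 0.441, 0.620 and 4.10 RPKM. Fpr2, a formyl peptide receptor, had 0.0257, 0.125, 0.0610, 0.466 and 2.33 RPKM. All 3 were highest at 6 h, and Cfb first moved between 2 and 6 h.

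Ptges, which makes prostaglandin E, had 0.0646, 0.198, 0.348, 0.714 and 1.72 RPKM. Has1, a hyaluronan synthase, had 0.310, 0.608, 0.606, 2.04 and 3.66 RPKM. The chemokine gene Ccl5 had 0.0776, 0.279, 0.453, 1.66 and 1.70 RPKM and was as high at 2 h as at 6 h. AV051173, whose span overlaps another gene, had 2.33, 2.14, 4.02, 5.40 and 10.7 RPKM. Of 11 acute-phase and effector genes measured, 4 were higher at 0.5 h, and then 2, 3 and 6 at the later times, with a median change of 0.31, 0.48, 1.10 and 1.97.

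Interferon-stimulated genes were mostly counted at 6 h. These genes are usually switched on by type I interferon, and many encode antiviral proteins. Of 13 measured, 1 was higher at 0.5 h, 0 at 1 h, 2 at 2 h, and 7 were by 6 h; the 7 were Gbp2, Gbp5, Mx1, Rsad2, Ifit1, Isg15 and Ifi205. The median of the list was -0.10, -0.24, 0.33 and 1.71, beside medians over all genes measured of -0.04, 0.03, -0.02 and 0.03. Mx1, an antiviral GTPase, had 3.8, 2.53, 2.03, 4.41 and 16.1 RPKM. Rsad2, which encodes viperin, had 1.97, 2.91, 1.34, 3.01 and 8.73 RPKM.

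Ifit1, which binds foreign RNA, had 0.772, 0.688, 0.476, 1.31 and 4.06 RPKM, and Isg15, a ubiquitin-like protein, had 0.979, 1.10, 0.837, 1.37 and 4.64 RPKM. Ifi205 had 0.00798, 0.233, 0.0662, 0.276 and 1.16 RPKM. Of the guanylate-binding protein genes, Gbp5 had 0.116, 2.57, 0.8, 2.90 and 2.50 RPKM and was higher from 0.5 h, except at 1 h. Gbp2, first higher at 2 h, had 0.155, 1.25, 0.593, 1.89 and 2.58 RPKM. Stat2 (0.67), Usp18 (0.69), Igtp (0.85), Ddx58 (1.05), Ifit3 (1.34) and Cmpk2 (1.49) had positive log2 changes at 6 h that did not pass.

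**Figure D3:**
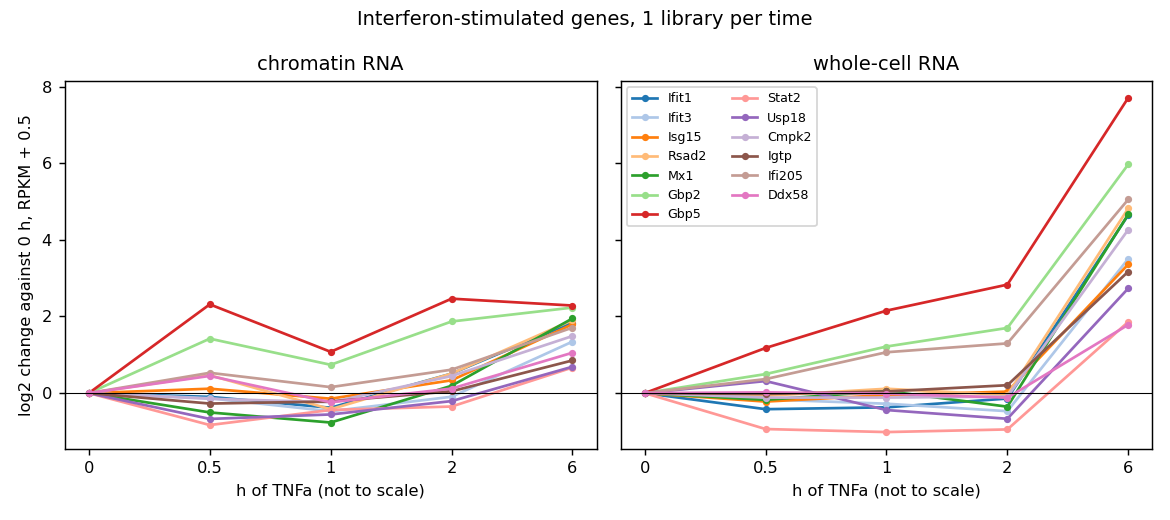
Log2 change of RPKM + 0.5 against 0 h for the 13 interferon-stimulated genes measured, in chromatin RNA (left) and whole-cell RNA (right), with 1 library per time and times not to scale. At 6 h all 13 lie above 0 in both panels, and Gbp5 and Gbp2 are above the others at 0.5 h in chromatin RNA.

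The base level of these interferon-stimulated genes differed between unstimulated libraries. In the 10 unstimulated wild-type chromatin libraries of the knockout series Isg15 ranged from 0.209 to 66.9 RPKM, and from 0.209 to 1.70 RPKM without replicate 1 of the Nfkbid series. That replicate stood apart at all its times: at 0 h it had 12.9 RPKM of Malat1 and 0.181 of Rmrp, against at least 1007 and 749 RPKM in the 9 others. Counts of called genes beyond the range of such libraries are therefore also given without it. The baseline mean of the 10 keeps it, and a mean of the 9 alone was not tried. Rsad2 ranged from 0.907 to 8.41 RPKM in the 9 others and Mx1 from 1.06 to 13.9 RPKM, so that the 6 h values of 8.73 and 16.1 RPKM lay just above them. Against the mean of all 10 unstimulated libraries in place of the 0 h library, the 6 h change of Isg15 turned from 1.80 to -0.65. That mean includes the 66.9 RPKM of replicate 1 of the Nfkbid series, while the 6 h value of Isg15 lay above all 9 others. The 6 h changes of Rsad2 (0.40), Ifit1 (0.66), Mx1 (1.03) and Gbp2 (1.19) did not pass against that mean, while that of Ifi205 (1.61) did. Ifit1, at 4.06 RPKM at 6 h, lay above a highest value of 2.09 RPKM in the 9.

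Few genes were lower, and those at 0.5 h mostly came back. Of the 23 genes lower at 0.5 h, 22 were higher at 1 h than at 0.5 h, and 3 were still counted as lower at 6 h; these were chosen for a low 0.5 h value. Smad6, an inhibitor of BMP signalling, had 5.57, 0.922, 4.57, 3.97 and 3.90 RPKM. Rab40c had 3.56, 0.463, 2.92, 2.40 and 2.06 RPKM. Cd200r1, an inhibitory receptor, had 3.56, 0.554, 2.98, 2.99 and 2.90 RPKM. These 3 were low in the 0.5 h library and not in the others.

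Pstpip1, which binds the actin skeleton, had 4.74, 0.812, 2.68, 2.35 and 3.25 RPKM. The nuclear RNA Neat1 had 415, 126, 469, 293 and 174 RPKM, the 0.5 h value being the lowest. It was the 1 gene of the 4 nuclear-retained RNAs listed to be counted as lower.

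Other falls came or stayed later. Gas6, a ligand for receptors that clear dying cells, had 5.22, 1.42, 2.11, 0.858 and 0.478 RPKM, a ratio of 0.0917 at 6 h (0.0808 to 0.104), the deepest of the 10 falls at that time (-2.55). Rnf150, counted as lower at 2 h, had 1.86, 1.94, 0.360, 0.263 and 0.310 RPKM, and Plau, the gene of urokinase, had 12.6, 13.8, 3.39, 5.57 and 3.38 RPKM. Tmem273, counted as lower at 0.5 and 1 h, had 7.87, 2.02, 2.06, 3.54 and 4.06 RPKM, and the noncoding RNA 9230105E05Rik had 4.45, 2.66, 2.63, 0.715 and 1.02 RPKM. Of the 10 genes lower at 6 h, 5 span under 200 bases and rest on few reads, among them Snord65 (25 reads at 0 h and 5 at 6 h), Snord57 (31 and 8) and Mir763 (41 and 10).

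The microRNA genes in the table are short spans inside longer primary transcripts, so their values count reads of the primary RNA and not the mature product. Of 32 measured, 11 were counted as higher or lower at some time, beside 217 of all 3877 genes measured (5.6%); short spans hold few reads. The mature sequences of those with known roles in macrophages are given, from RefSeq's GRCm38.p6, with the seed (bases 2 to 8) in capitals; the 4 seeds differ from each other.
miR-155-5p: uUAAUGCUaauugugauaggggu
miR-221-3p: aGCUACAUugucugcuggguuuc
miR-21a-5p: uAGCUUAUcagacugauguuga
miR-223-3p: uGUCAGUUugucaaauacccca
Mir155, which acts in inflammatory activation, had 0 or 1 read at 0 h and 24, 4, 4 and 5 reads at the later times, and was at least 6.50-fold higher at 0.5 h against the floor. Mir221 had 30, 342, 46, 46 and 97 reads (16.6 RPKM at 0 h and 154 at 0.5 h) and Mir21a had 4, 28, 9, 6 and 19 reads. Reads are not scaled to depth, and the 2 h library held only 11.5 M. As log2(RPKM + 0.5), the values at 1 and 2 h were 1.75 and 2.54 for Mir155 and 4.53 and 5.41 for Mir221. For Mir21a they were 2.34 and 2.62. Mir223, a microRNA of myeloid cells, went from 41 reads at 0 h to 14 at 1 h, as did the noncoding RNA F630028O10Rik, whose span it overlaps (1667 to 551 reads). Mir155, Mir221 and Mir21a were thus highest at 0.5 h, and the 2 overlapping ones at 0 h.

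The 0 h library was set beside the 10 unstimulated wild-type chromatin libraries of the other series to see how far one such library can lie from others. Of the 3877 genes, 164 lay above and 672 below all 10. Of the 145 genes higher at 0.5 h, 108 were above all 10 unstimulated libraries, as 14.9% of all genes measured were, and 139 of the 145 were above all but replicate 1 of the Nfkbid series. At 1 h the count was 9 of 22 (18 without that replicate; all genes 8.47%), at 2 h 33 of 56 (51 without it; all genes 8.06%) and at 6 h 57 of 79 (75 without it; all genes 9.97%). Of the 23 genes lower at 0.5 h, 17 were below all 10 (18 without that replicate), beside 26.8% of all genes measured. All these sets were chosen by the same stimulated values, so a part of their excess over all genes follows from the choice. The shares of all genes are for all 10 libraries, and the counts without that replicate have no matching share. Smad6, chosen here after its values were seen, ranged from 0.0173 to 5.81 RPKM in the 10, so its value of 0.922 RPKM at 0.5 h was inside their range.

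The choice of baseline bears on single calls. Of 74 named genes, 48 kept their call at the time of their largest change against the mean of the 10 unstimulated libraries, and 26 lost it. That mean includes replicate 1 of the Nfkbid series, which raises it for some genes. Ccl9 had 128 RPKM there and at most 7.82 in the 9 others, under its 20.2 RPKM at 0.5 h with TNFa. For Bcl3 the highest unstimulated value, 2.66 RPKM, was the same with and without that replicate. Among the early rises lost were Ccl9 (0.13), Zfp36 (0.47), Ebi3 (0.52), Ier3 (1.02), Bcl3 (1.27), Gadd45b (1.35), Egr1 (1.35), Gch1 (1.38), Sdc4 (1.38), Nfkb1 (1.44) and Rel (1.45). At 6 h Cxcl10 (0.65), Tnfrsf1b (0.86) and Ccl5 (1.06) were lost beside the interferon-stimulated genes given above. Of the falls, Smad6 (-0.11), Snord57 (-0.14), Snord65 (-0.62), 9230105E05Rik (-1.19) and F630028O10Rik (-1.45) were lost. Mir3100 (-0.43) and Mir5129 (0.22) complete the 26. Cxcl2 (4.91), Clec4e (4.26), Tnip3 (4.24), Acod1 (3.78) and Nfkbia (3.22) were among those kept.

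Libraries of whole-cell RNA, which share no sample with these, were read for the same genes. Of the 145 genes higher in chromatin RNA at 0.5 h, 54 were at least 2-fold higher in whole-cell RNA at 0.5 h, beside 3.05% of all genes measured. At 1 h the count was 16 of 22 (all genes 2.69%), at 2 h 34 of 56 (2.76%) and at 6 h 74 of 79 (8.38%). At any of the 4 times, 112, 21, 53 and 74 of these genes were at least 2-fold higher, beside 10.8% of all genes measured. Of the 23 genes lower at 0.5 h, 0 were at least 2-fold lower in whole-cell RNA at 0.5 h. At some time 17 were, beside 13.2% of all genes measured, and 15 of these were at 6 h. The share of all genes lower was not taken at single times, so no delay can be read from these counts. The classes kept different courses there. Transient genes had median whole-cell changes of 1.79, 1.93, 1.51 and 0.48 at the 4 times, and two-wave genes 0.96, 1.77, 1.16 and 1.96. Second-wave genes had 0.00, 0.23, 0.19 and 4.32, and 18 of the 19 were at least 2-fold higher at 6 h, Snord49b being the one that was not.

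In whole-cell RNA some genes kept the dip at 1 h and others did not. Cxcl1 had 1.11, 227, 6.46, 27.0 and 16.7 RPKM at 0, 0.5, 1, 2 and 6 h, and Cxcl2 had 3.37, 686, 32.6, 77.8 and 117 RPKM, both with a low at 1 h. Acod1 had 8.02, 39.3, 156, 182 and 1398 RPKM, and Ccl5 had 15.4, 9.74, 11.8, 17.2 and 1187 RPKM. For these the 6 h value stood far above all earlier ones. Mx1 likewise had 1.69, 1.44, 1.77, 1.21 and 55.1 RPKM. Whole-cell RPKM and chromatin RPKM are different scales, so levels are compared only within each.

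**Figure D4:**
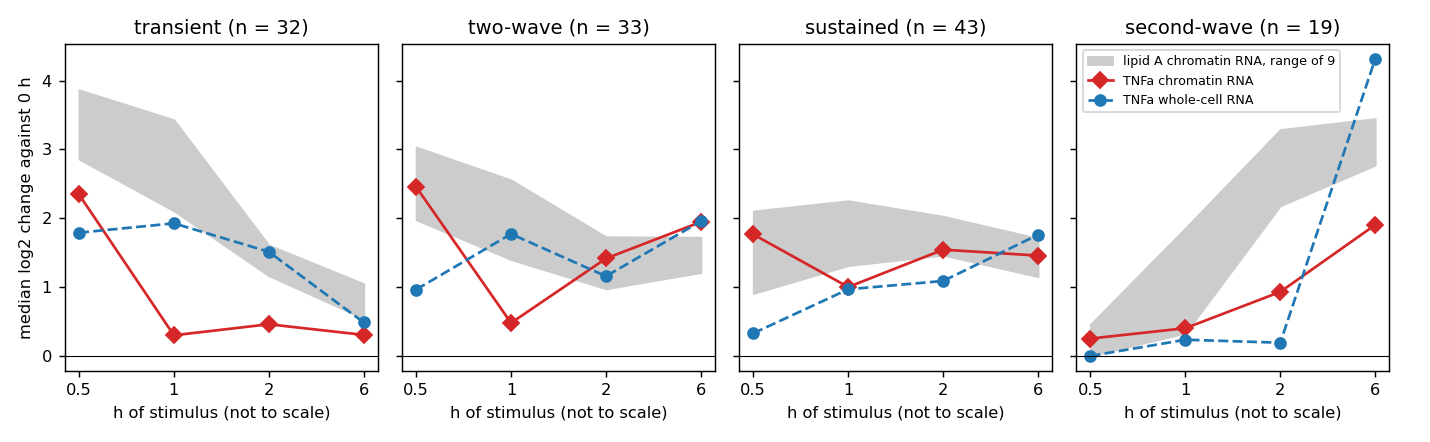
Median log2 change of RPKM + 0.5 against 0 h for the genes of each class: diamonds are TNFa in chromatin RNA, circles TNFa in whole-cell RNA, and the grey band the range of the class median over 9 lipid A chromatin libraries (replicate 1 of the Nfkbid series left out). The chromatin line of the classes follows from their rules; the circles and bands do not, and the second-wave circles go from 0.19 at 2 h to 4.32 at 6 h.

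From 1 h on, most of the genes raised by lipid A changed less with TNFa than in any of the lipid A libraries. Genes were taken whose median change over the 10 lipid A libraries, each set against the 0 h mean of its own series, was at least 3-fold with a median of at least 1 RPKM: 168 of 2417 at 0.5 h (6.95%), 187 of 2576 at 1 h (7.26%), 285 of 2581 at 2 h (11%) and 234 of 2796 at 6 h (8.37%). TNFa took 109 of the 168 past 3-fold at 0.5 h (64.9%), but 19 of the 187 at 1 h (10.2%), 43 of the 285 at 2 h (15.1%) and 52 of the 234 at 6 h (22.2%). The median change of these genes was 2.44 for lipid A and 1.81 for TNFa at 0.5 h, 2.30 and 0.54 at 1 h, 2.12 and 0.43 at 2 h, and 2.19 and 0.81 at 6 h. The genes were chosen by their lipid A values, which favours lipid A. TNFa lay below all 10 lipid A libraries for 44 of the 168 genes at 0.5 h, and for 116, 203 and 154 genes at the later times. Without replicate 1 of the Nfkbid series these counts were 79, 157, 245 and 186. Over all genes measured the shares below all 10 were 1.92%, 3.1%, 7.18% and 5.23%. No such share was taken for the 9 libraries. The genes higher with TNFa lay below all 10 in 18 of 145, 8 of 22, 14 of 56 and 22 of 79 cases, and in 38, 14, 21 and 30 cases with 9 libraries.

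Between 0.5 and 1 h the TNFa course fell further than any lipid A course. For the 168 genes raised by lipid A at 0.5 h, a choice that uses no TNFa value, the median TNFa step from 0.5 to 1 h was -1.43, and 164 of them were lower at 1 h. The same step had a median between -1.0 and 0.46 in the 10 lipid A libraries, each set against the 0.5 h mean of its series. From 1 to 2 h the median TNFa step was 0.32, and the lipid A medians lay between -1.08 and 0.36, or between -1.08 and -0.57 in the 9 libraries. From 2 to 6 h it was 0.04, with lipid A between -0.56 and 0.42, or between -0.56 and 0.01 in the 9. The TNFa step was thus below every lipid A library in the first interval and above the 9 in both later ones. In the last interval the gap was small, 0.04 against 0.01, and the TNFa median over all genes measured was 0.05. Since 1 TNFa library stands at each time, the differences have no test.

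**Figure D5:**
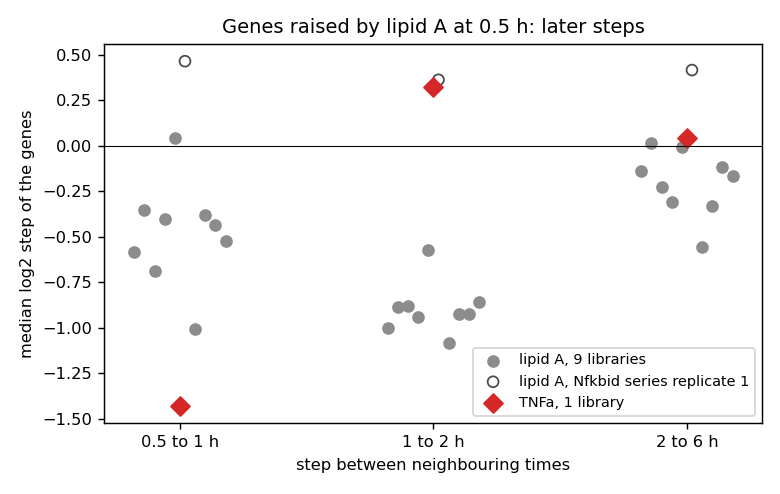
Median log2 step between neighbouring times of the 168 genes raised by lipid A at 0.5 h; filled circles are 9 lipid A libraries, the open circle replicate 1 of the Nfkbid series, and the diamond the TNFa course, with 1 library at each time. The diamond is at -1.43, 0.32 and 0.04.

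Dusp1 was at -0.18 with TNFa at 1 h and between 3.25 and 6.11 in the lipid A libraries, and Il1b at 0.22 against 4.59 to 8.73. The monocyte chemokine gene Ccl2 had 11.7, 20.4, 4.06, 8.77 and 5.76 RPKM with TNFa, never past 3-fold, and changed by 2.09 to 7.02 with lipid A at 1 h. Ranges here are over all 10 lipid A libraries. Without replicate 1 of the Nfkbid series that of Ccl2 was 2.80 to 4.96. Its chromatin level ranged from 0.507 to 27.7 RPKM in the 10 unstimulated libraries. In whole-cell RNA Ccl2 did rise with TNFa, by 4.43 at 0.5 h and 3.05 at 1 h. Of 7 monocyte and lymphocyte chemokine genes measured, 1 was higher in chromatin RNA at 0.5 h, 0 at 1 h and 1 at both later times. In whole-cell RNA Ccl7 (2.87), Ccl4 (3.22) and Ccl3 (2.71) rose with TNFa at 0.5 h, while Ccl5 (-0.63) and Ccl6 (-0.04) did not. Atf3, a stress-response factor, changed by 0.25 with TNFa at 0.5 h and by 2.17 to 4.0 with lipid A. Il27 and the enzyme gene Il4i1 did not pass at any TNFa time, with changes up to 1.37 and 0.89, while with lipid A at 2 h they changed by 5.99 to 7.01 and by 1.99 to 5.69.

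Interferon-stimulated genes differed in both size and time, with lipid A ranges again over all 10 libraries. With lipid A Mx1 changed by 3.85 to 5.96 at 2 h, where TNFa gave 0.19, and by 4.14 to 5.94 at 6 h, where TNFa gave 1.95. Rsad2 changed by 3.0 to 5.05 with lipid A at 1 h and by -0.42 with TNFa, and Ccl5 by 5.56 to 6.99 against 0.72. In contrast Acod1 at 6 h (6.10 with TNFa, 4.58 to 7.41 with lipid A), Sod2 (3.32, 2.90 to 4.66), Clec4e (4.29, 2.65 to 5.33) and Birc3 (2.56, 1.53 to 2.47) reached or passed the lipid A range. Birc3 at 6 h lay above all 10. These TNFa changes rest on the 0 h library. Acod1 had 0.346 RPKM there, under the lowest of the 10 unstimulated libraries of the other series (0.966). Against their mean, which includes replicate 1 of the Nfkbid series, its 6 h change was 3.78, under the lipid A range. Birc3, at 1.07 RPKM at 0 h, lay under their median of 2.58, and Clec4e, at 2.00 RPKM, above their median of 1.30. Of the 8 genes earlier described as targets of IkBz and listed here, 3 had enough signal with TNFa, and 1, Ebi3, was higher, at 0.5 h.

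Genes that mark dividing cells were not counted at any time. The 9 measured had a median change of -0.29, -0.17, -0.20 and -0.65 at the 4 times, and the summed RPKM of the list was 42.2 at 0 h and 24.2 at 6 h. Second-tier transcription factors were sparse: 3 of 15 were measured and none passed, Cebpd changing by 1.18 and Ets2 by 1.41 at 6 h. The housekeeping genes measured, 5 in number, had medians between -0.04 and 0.19.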

How the data were processed

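Chromatin-associated RNA of 5 TNFa libraries was read from a deposited table of RPKM values for 15196 genes made by the authors, with gene spans in mm9. HISAT2, SAMtools and mm9 are named in the submitters' processing notes; the counting rule and filters are not given in the sources used here. Libraries were made with a stranded Illumina TruSeq kit, per the labels' protocols. No column lacked a sample (0). Values worth up to 30 reads were all whole multiples of 1 read within 0.02, which gave the reads and the depth of each chromatin library, 11.5 to 23.4 M reads.

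Changes are differences of log2(RPKM + 0.5), which understates the change of low genes. A gene was measured at a time where the higher library held at least 1 RPKM and 20 reads, and called at 3-fold. With 1 library per time no test was run. Intervals of RPKM ratios are 95% exact binomial intervals of the reads; ratios against at most 1 read use a floor of 3 reads per library. Genes were named by rule: the 8 largest rises and 5 largest falls at each time, the 6 largest of each class, list members called at some time, and the NF-kB subunit and feedback genes; others are examples. Members, classes and lists were chosen with earlier results of these data known. Whole-cell changes used 2-fold. The calling steps were tested on simulated data. Alternatives were the pseudocount, filters, fold, baseline, centring, overlapping genes (1778) and leaving out 1 library. Promoter and microRNA sequences came from RefSeq (GRCm38.p6), another build than the gene spans. Python 3.11.15, numpy 2.4.6, pandas 2.3.3, scipy 1.17.1 and matplotlib 3.10.9 were used.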

Additional observations from a re-analysis of the deposited data

Results flagged for a closer look

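The 4 points given here are genes counted as higher or lower with TNFa that moved the opposite way in all 10 lipid A libraries. Smaller TNFa changes of opposite sign, such as those of Rsad2 and Dusp1 at 1 h, are not among them. None of these differences was tested, since TNFa has 1 library per time. Rgs1, a regulator of G-protein signalling, changed by -1.59 with TNFa at 1 h and by 0.63 to 3.49 with lipid A. Igf1, a growth factor, changed by 1.61 with TNFa at 6 h and by -2.30 to -1.62 with lipid A. Pot1b, a telomere protein, changed by 1.63 with TNFa at 6 h and by -0.85 to -0.13 with lipid A. H2-K2 changed by 1.89 at 6 h and by -1.43 to -0.16 with lipid A; its reads can be shared with near copies among the class I genes.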

How the results depend on the processing

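No paired analysis was possible because each TNFa time has 1 library. Counts that moved by over 1.5 times are given by setting; the cause was not tested. With a pseudocount of 0.1, 78, 12, 14 and 27 genes were lower at 0.5, 1, 2 and 6 h, 39 were higher at 1 h, and 54 were two-wave. With a pseudocount of 1, 95, 9, 34 and 45 were higher, 7 and 3 were lower at 0.5 and 1 h, 26 were sustained and 12 second-wave. Without a filter, 12, 10 and 17 were lower at 1, 2 and 6 h. At 3 RPKM, 12 were second-wave. At 2-fold, 299, 66, 113 and 202 were higher, 144, 33, 38 and 49 lower, and 105 transient, 50 two-wave, 167 sustained and 84 second-wave. Against the mean of the 10 unstimulated libraries, 358, 231, 247 and 207 were lower, 47 higher at 1 h, 9 second-wave, Isg15 at 6 h changed by -0.65, and 26 of 74 named genes lost their call. That mean includes replicate 1 of the Nfkbid wild-type series. Without overlapping genes, 6 were lower at 6 h. Without replicate 1 of the Nfkbid wild-type series, 38 and 14 genes at 0.5 and 1 h lay below the lipid A range, and 18 and 51 at 1 and 2 h above the unstimulated libraries. Of the 168 genes raised by lipid A at 0.5 h, 79 in place of 44 lay below the lipid A range without that replicate. At 3-fold in whole-cell RNA, 9 and 3 of the genes lower at 0.5 and 6 h passed. The control BMDM of the IkBz overexpression series, 1 library at 0 h and 1 at 2 h of TNFa, were chosen after seeing the data. They are another culture, and their titles give no RNA fraction. In them 53 of the genes higher and 1 of those lower at 2 h moved at least 2-fold the same way. No share of all genes was taken for them. Another 73 counts under these and the other settings stayed within 1.5 times of the reported ones. With 1 library per time, differences between TNFa libraries other than time cannot be told apart from time.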
